A study of Oryza sativa with 6 samples.

Results

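MADS26 (LOC4344493) and MADS57 (LOC4330621) are rice genes of the MADS-box family of transcription factors. They were taken as every probe set assigned to a single gene whose symbol or synonym is MADS26 or MADS57. This gave 2 genes with 1 probe set each, of 17905 genes that had a probe set of their own. The pair was chosen because it differed between the genotypes compared here, so its values are described without a test. The series measured RNA from leaves of 4-week-old rice (Oryza sativa) on the 1-colour Affymetrix Rice Genome Array, with 1 array per sample. The OX group holds 3 arrays of transgenic plants that overexpress OsCGA1, a GATA-type transcription factor, and the WT group holds 3 arrays of wild type plants. Plants of both groups had a day of 16 h light (28 °C) and 8 h darkness (23 °C). The promoter of the transgene, the number of transgenic lines and the cultivar are not given in the sources used here. The series title names chloroplast development as its subject.

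MADS-box proteins bind DNA as dimers or larger complexes through a conserved domain and are known above all for setting flowering time and floral organ identity. Some lineages act in vegetative organs. MADS26 belongs to the AGL12 lineage, and in rice its reduced expression has been linked to higher resistance to pathogens and to water deficit. MADS57 belongs to the AGL17 lineage. In rice it is known as a target of the microRNA miR444a and as a repressor of the strigolactone receptor gene D14, which restrains tiller outgrowth. In the RefSeq gene table (assembly ASM3414082v1), both genes are protein-coding and lie on different chromosomes. The table lists 1 transcript for MADS26 and 3 for MADS57, and the synonym FDRMADS3 of MADS26 is also given to MADS15.

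The arrays of each genotype resembled each other more than those of the other. Over tested probe sets they correlated at 0.947 to 0.968 within OX, 0.967 to 0.969 within WT and 0.911 to 0.926 between OX and WT. Median signals were 14.7 to 16.2 on the OX arrays and 16.8 to 18.7 on the WT arrays. Signal ratios of 3' to 5' control probe sets, a sign of RNA quality, did not overlap for 2 of 3 rice actin pairs, at 3.25 to 7.29 on the OX arrays against 2.38 to 3.11 on the WT arrays and at 2.16 to 3.40 against 1.53 to 2.01. The third actin pair (3.88 to 5.76 in OX, 2.98 to 4.53 in WT) and GAPDH (3.36 to 4.65 in OX, 4.25 to 5.18 in WT) overlapped. So did rice cyclophilin (1.58 to 1.75 in OX, 1.30 to 1.88 in WT) and ubiquitin (0.74 to 0.81 in OX, 0.72 to 0.81 in WT). The part of these ratios in the differences below was not tested. The overexpressed gene could not be checked, since 0 genes of the table carry the name CGA1. Leaf markers were bright on every array: the signals of CAB2R, RCABP69, rca, RBCS and PSAG lay between 1166 and 13496.

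MADS26 was lower in OX leaves. Its MAS5 signal, a linear brightness summarised over the probes of a probe set, was 74.1, 73.7 and 147.6 on OX arrays 1, 2 and 3, against 307.8, 324.3 and 234.8 on WT arrays 1, 2 and 3. Every OX array was below every WT array, and OX array 3 lay closest to the WT arrays. The mean signal was 98.5 ± 42.6 in OX and 289 ± 47.6 in WT (SD, n = 3 each), a ratio of 0.341. On the log2(signal + 3) scale the difference, OX minus WT, was -1.59 ± 0.27 (standard error from the limma fit to all probe sets). Among 28456 tested probe sets, 245 had a lower value of this difference.

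MADS57 was higher in OX leaves, but its signal was dim. It read 35, 33.5 and 36.1 on OX arrays 1, 2 and 3, against 7.5, 1.3 and 0.5 on WT arrays 1, 2 and 3. The groups did not overlap. The OX arrays were close to each other, with a highest-to-lowest ratio of 1.08, while the WT arrays spread over a ratio of 15. The mean signal was 34.9 ± 1.31 in OX and 3.1 ± 3.83 in WT (SD, n = 3 each). The signals of WT arrays 2 and 3 were below the 20th percentile of their arrays, which was 3 on both. Detection calls were not used here, so whether a WT array measured MADS57 above background was not tested.

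**Figure D1:**
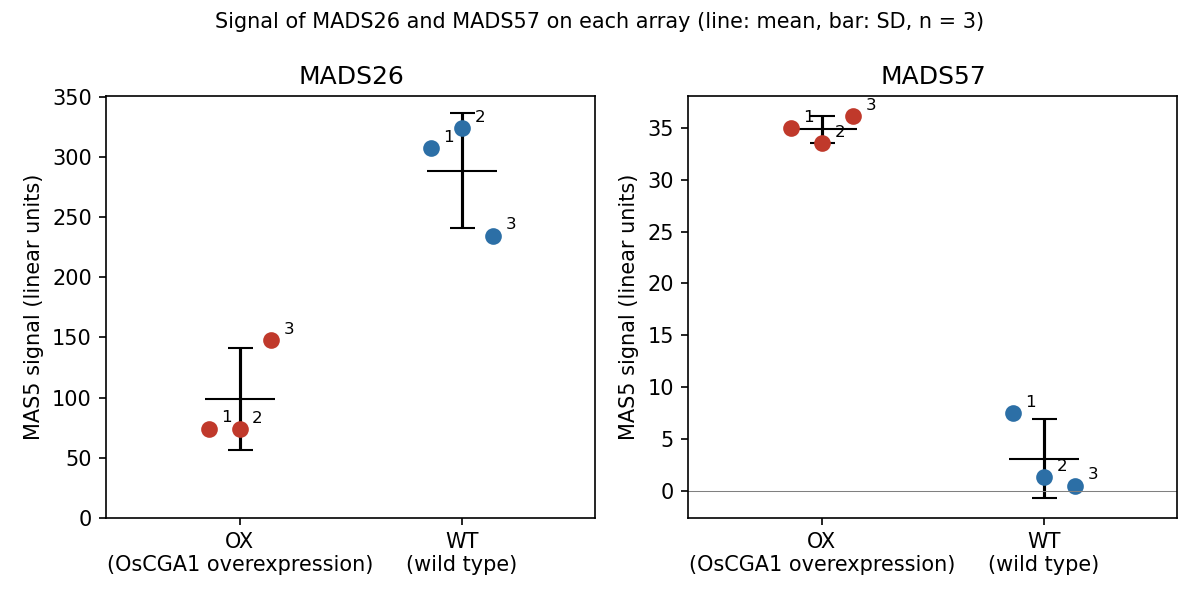
MAS5 signal (linear units) of MADS26 and MADS57 on each array, with the replicate number beside each point. The horizontal line is the mean and the bar the SD of the 3 arrays of a group. All OX points of MADS26 (73.7 to 147.6) lie below all WT points (234.8 to 324.3), and all OX points of MADS57 (33.5 to 36.1) lie above all WT points (0.5 to 7.5).

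The difference for MADS57 was 2.81 ± 0.49 on the log2(signal + 3) scale, and 157 of the 28456 tested probe sets had a higher one. Its size depends on the constant added before the logarithm, because the WT signals lie near it. With 12 added instead of 3 the difference was 1.66, and with nothing added it was 4.36. The same settings gave -1.50 and -1.62 for MADS26. MADS57 entered the set of tested probe sets through the OX arrays: its mean over all 6 arrays was 18.98, above the minimum of 16.8, while its WT mean was not. As background, 38.7% of the tested probe sets had OX and WT groups that did not overlap, and 16.1% passed limma at an adjusted p under 0.05 (8.65% higher and 7.44% lower in OX). Nothing is read from these shares, or from the counts of probe sets with larger differences, about MADS26 and MADS57, which this same contrast chose. In RNA from whole leaves, fewer cells that express a gene and less of its RNA per cell cannot be told apart.

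**Figure D2:**
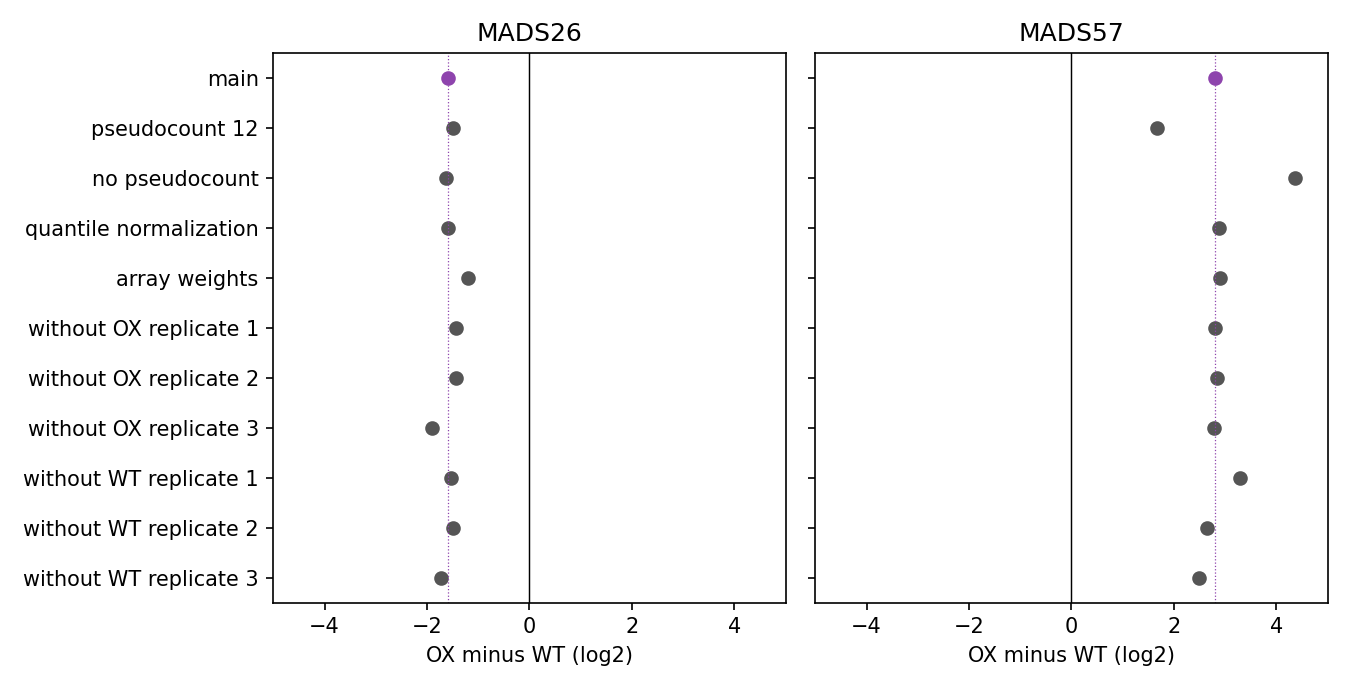
Difference between OX and WT (log2) for MADS26 and MADS57 under each setting named on the left, both panels sharing the rows. The dotted line marks the value with 3 added and all arrays. MADS26 ranged from -1.91 without OX replicate 3 to -1.20 with array weights, and MADS57 from 1.66 to 4.36, both extremes being changes of the added constant.

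Leaving out 1 array at a time kept each direction. The MADS26 difference ran from -1.91 without OX replicate 3 to -1.42 without OX replicate 2. The MADS57 difference ran from 2.49 without WT replicate 3 to 3.29 without WT replicate 1, the WT array with the highest signal.

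Few other MADS-box genes gave a signal bright enough to test in these leaves. Of these, 1 passed, beside 19.1% of all tested genes that passed in either direction. The gene table names 31 MADS genes, all with a probe set of their own, and of the 29 beside MADS26 and MADS57, 10 were tested. Among these, 0 rose and 1 fell at an adjusted p under 0.05 from limma, and 3 had an unadjusted p under 0.05. Over all 14616 tested genes, 11.1% rose and 8% fell by the same rule, and 36.5% had an unadjusted p under 0.05. The median difference of the 10 genes was -0.44 on the log2 scale, against -0.02 over all tested genes. Of the 10, 8 were below 0, beside 51.6% of all tested genes.

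The gene that fell was MADS16, also called SPW1, a B-class gene that specifies lodicules and stamens. Its signal was 79.8, 38.8 and 54.4 on OX arrays 1, 2 and 3, against 119.5, 109.2 and 101.1 on WT arrays 1, 2 and 3. Every OX array was below every WT array, and the difference was -0.95 ± 0.24 (limma adjusted p 0.0356). The call ended without OX replicate 3 and without each WT replicate in turn, with adjusted p values from limma of 0.0808 to 0.106. It also ended with no filter (0.0648) and with no variance trend (0.0602). MADS4, another B-class gene, read 35 to 47 on the OX arrays and 44.7 to 70.3 on the WT arrays, which overlapped (limma adjusted p 0.212).

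The other tested genes of the AGL17 lineage, to which MADS57 belongs, had OX and WT groups that overlapped. MADS27 read 22.7, 13.9 and 19.9 on the OX arrays, against 12.7, 11 and 23.2 on the WT arrays. Its difference was 0.26 ± 0.36 (limma adjusted p 0.649), and its second probe set was below the filter. MADS25 read 35.9, 38.5 and 12.5 on the OX arrays, against 18.2, 41.1 and 151.1 on the WT arrays. These groups overlapped, and WT array 3 alone stood far above the rest (-0.84 ± 0.70, limma adjusted p 0.434). Both probe sets of MADS23 were below the filter, with signals of 0.4 to 4.3 on the OX arrays and 0.1 to 21.2 on the WT arrays. The difference between MADS57 and its relatives was not tested.

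The SVP-lineage genes MADS22, MADS47 and MADS55 and the SOC1-like flowering activator MADS50 did not pass. MADS22 read 1231 to 1335 in OX and 1188 to 1261 in WT, which overlapped (0.07 ± 0.09, limma adjusted p 0.605). MADS55 read 171.1 to 173.5 in OX and 191.3 to 265.4 in WT, without overlap (-0.45 ± 0.15, limma adjusted p 0.0746), and passed with array weights (0.0378) and without WT replicate 2 (0.0319). MADS47 was at -0.37 ± 0.16 and MADS50 at -0.48 ± 0.19 (limma adjusted p 0.152 and 0.122). The AP1/FUL-lineage genes MADS14 and MADS18 were at -0.43 ± 0.27 and -0.48 ± 0.32 (limma adjusted p 0.293 and 0.327). Of the 10 genes, 3 had groups that did not overlap, beside 42.8% of all tested genes.

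The remaining 19 MADS genes were below the filter, with means of 1.87 to 14.5 over the 6 arrays in their brightest probe set. They include the E-class genes MADS1, MADS5, MADS7, MADS8 and MADS34 and the C- and D-class genes MADS3, MADS13, MADS21 and MADS58, which specify stamens, carpels and ovules. In 3 of the 19 the groups did not overlap, with lower signals in OX each time. Over all 3289 genes below the filter the share was 16.4% in either direction and 9.61% with lower signals in OX. MADS8 read 7, 10.9 and 6.6 on the OX arrays, against 19.1, 22.2 and 20 on the WT arrays. MADS7 read 0.5 to 2.3 in OX and 4.5 to 9.3 in WT, and MADS21 0.4 to 9.9 in OX and 10 to 15.1 in WT. With no filter on dim probe sets, 0 of the 29 genes passed.

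**Figure D3:**
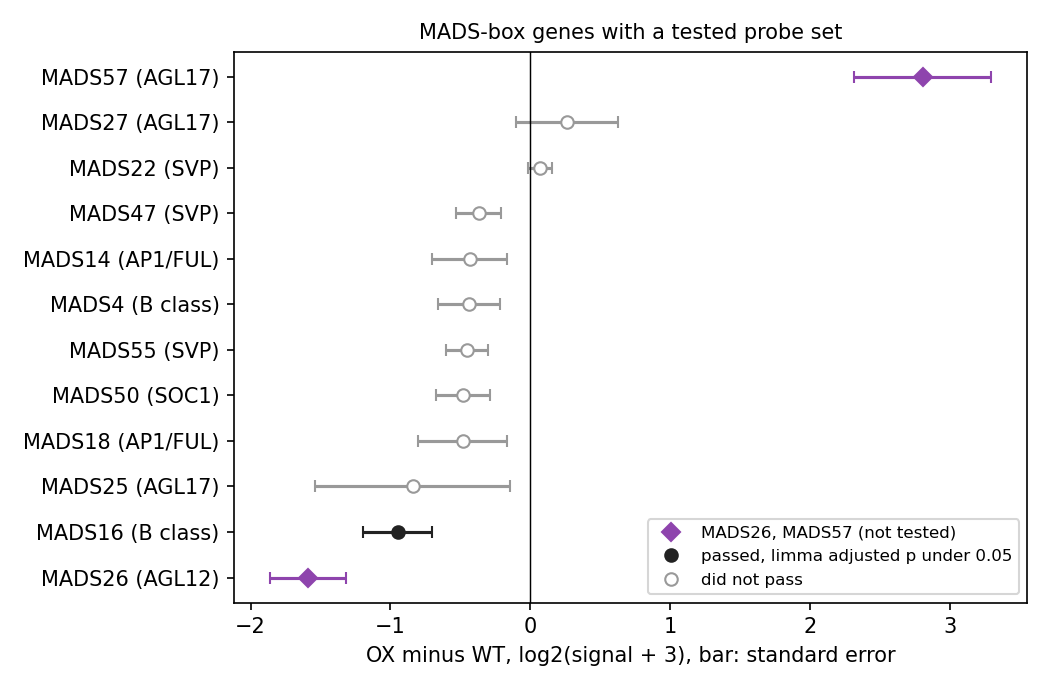
Difference between OX and WT on the log2(signal + 3) scale for the 12 MADS-box genes with a tested probe set, each with its lineage in brackets. Points are estimates and bars standard errors (n = 3 arrays per group). MADS57 (2.81) and MADS26 (-1.59) form the ends of the plot, and the filled point is MADS16 (-0.95).

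D14, the strigolactone receptor gene, was the one gene of the short list tied to MADS57 in rice that could be tested, and it did not pass. It read 1683, 1928 and 1703 on the OX arrays, against 2382, 2235 and 1970 on the WT arrays. The groups did not overlap, as in 42.8% of all tested genes, and the difference was -0.31 ± 0.11 (limma adjusted p 0.0883). D14 passed in 2 of 15 alternatives, with array weights (0.0295) and without OX replicate 2 (0.049, limma). In the other 13 it did not, with adjusted p values from limma of up to 0.227. The nitrate transporter gene NRT2.3 was below the filter, with 1.4, 1.2 and 11.6 on the OX arrays, against 0.8, 2.4 and 3.4 on the WT arrays. TB1, which encodes a partner of MADS57, and WRKY94 had no entry under those names in the gene table used here. Of the strigolactone and tillering list, 4 of 10 genes were tested and 0 passed limma at an adjusted p under 0.05, while 1 of them, D14, had an unadjusted p under 0.05, as had 36.5% of all tested genes. D17 and D3, of strigolactone synthesis and perception, were at 0.40 ± 0.26 and 0.03 ± 0.20, and LAX1, a regulator of axillary meristems, at 0.17 ± 0.43 (limma adjusted p 0.331, 0.93 and 0.815).

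MADS26 has been tied in rice to defence and water deficit, and some genes of both kinds rose in OX leaves. In the defence list 6 of 14 genes were tested, of which 3 rose and 0 fell, beside 11.1% higher and 8% lower over all tested genes. The median was 0.75, against -0.02 over all tested genes. WRKY62 read 324.4, 480.3 and 383.4 on the OX arrays, against 87.9, 108.6 and 182.2 on the WT arrays (1.67 ± 0.26, limma adjusted p 0.00601). WRKY76 rose by 1.70 ± 0.28 (limma adjusted p 0.007). Both encode pathogen-responsive WRKY factors and passed in all 15 alternatives. Whether their rise goes with more or less resistance was not tested. PBZ1, which encodes a pathogenesis-related protein, rose by 0.85 ± 0.24 (limma adjusted p 0.0475). That call ended in 5 of the 6 fits that left out 1 array, all but the one without OX replicate 3 (adjusted p 0.06 to 0.128 from limma), and with array weights its difference was 0.49. NPR1 (also NH1), a regulator of salicylic acid responses, was at 0.66 ± 0.20 (limma adjusted p 0.064) and passed with array weights (0.0268).

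In the water-deficit list 11 of 13 genes were tested, of which 3 rose and 0 fell, beside 11.1% higher and 8% lower over all tested genes, with a median of 0.43. The other 8 did not pass. Among them RAB21 was at 0.41 ± 0.52 and LIP9 at 0.34 ± 0.16 (limma adjusted p 0.617 and 0.189). DREB2A was at 0.27 ± 0.24 and TRAB1 at -0.21 ± 0.12 (limma adjusted p 0.478 and 0.255). DREB1B, a stress-responsive DREB1 factor, read 45.9, 247.7 and 242.6 on the OX arrays, against 7.3, 10.7 and 29 on the WT arrays (3.13 ± 0.67, limma adjusted p 0.0191). OX array 1 was far below the other OX arrays, and the WT mean was below the filter, so DREB1B was tested through the OX arrays. The call ended without OX replicate 3, WT replicate 1 or WT replicate 2 (adjusted p 0.0695 to 0.071 from limma). SALT, a salt-induced lectin gene, rose by 1.56 ± 0.38 and LEA3, a late embryogenesis gene, by 3.15 ± 0.88 (limma adjusted p 0.0306 and 0.046). With array weights the difference of SALT was 1.03. LEA3 too was tested through the OX arrays, with 365, 46.1 and 114.4 on the OX arrays, against 21.3, 26.1 and 1.3 on the WT arrays. Its difference was 2.45 with 12 added and 3.79 with nothing added, and ran from 2.27 without WT replicate 3 to 3.84 without OX replicate 2 when 1 array was left out. Each lost its call in 5 of the 6 fits that left out 1 array, SALT in all but that without OX replicate 3 (0.053 to 0.106) and LEA3 in all but that without OX replicate 2 (0.0697 to 0.108, limma). NAC6, a stress-responsive NAC factor, was at 0.43 ± 0.13 (limma adjusted p 0.0563) and passed with array weights (0.0121), without OX replicate 1 (0.032) and with the mean over probe sets (0.0436). All these changes come from the arrays that chose MADS26 and MADS57, so they are no separate evidence on either gene.

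Of the flowering-time list, 5 of 15 genes were tested, of which 0 rose and 2 fell, beside 11.1% higher and 8% lower over all tested genes, with a median of -0.48. PRR37, a clock-related repressor of flowering, read 863.4, 1445 and 899.3 on the OX arrays, against 1851, 1758 and 1849 on the WT arrays (-0.81 ± 0.19, limma adjusted p 0.0252). DTH8, which encodes an NF-Y subunit acting on flowering, fell by 0.82 ± 0.21 (limma adjusted p 0.0378). Without 1 array, PRR37 lost its call in 5 of 6 fits (0.0597 to 0.0874), all but that without OX replicate 2, and DTH8 in 4 (0.0775 to 0.115), namely without OX replicate 3 or any WT replicate (limma). DTH8 also missed the threshold under quantile normalization (0.0509). GI, the rice GIGANTEA gene, was at -0.38 ± 0.14 (limma adjusted p 0.109) and passed with array weights (0.0364) and without OX replicate 2 (0.0274).

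MADS26 transcripts are known from roots as well as shoots. Of the 8 root markers 7 were tested, of which 3 fell and 0 rose, beside 8% lower and 11.1% higher over all tested genes, with a median of -0.80. The silicon transporter gene Lsi1 read 123.1, 194 and 160.5 on the OX arrays, against 370.6, 418.9 and 458.2 on the WT arrays (-1.39 ± 0.17, limma adjusted p 0.00269). YSL15, an iron carrier gene, fell by 1.63 ± 0.31 and IRT1, an iron transporter gene, by 0.80 ± 0.23 (limma adjusted p 0.0129 and 0.0491). YSL15 lost its call without WT replicate 1 (0.0544) and IRT1 in all 6 fits that left out 1 array (0.0555 to 0.142, limma). IRT2 was at -1.34 ± 0.40 (limma adjusted p 0.0588) and passed with array weights (0.0204), without OX replicate 1 (0.0281), without WT replicate 3 (0.0413) and with the mean over probe sets (0.0477). The metal and sodium transporter genes NRAMP5 and HKT1;5 were at -0.11 ± 0.31 and -0.04 ± 0.29 (limma adjusted p 0.833 and 0.945). Lsi2, a silicon efflux transporter gene of the same list, was below the filter, at 0.6 to 1.5 on the OX arrays and 0.6 to 1.6 on the WT arrays. The summed signal of the list ran from 2775 to 4367 in OX and from 4056 to 6168 in WT, which overlapped. Most of this sum came from 1 marker, NRAMP1, so it says little about the others. NRAMP1 read 3386, 2448 and 4034 on the OX arrays, against 5204, 5443 and 3357 on the WT arrays (-0.50 ± 0.23, limma adjusted p 0.17). The part of these markers in the MADS26 difference was not tested.

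Flower and meristem markers were mostly dim, and the counts below stand beside 8% of all tested genes that fell. Of 10 flower markers 3 were tested, of which 1 fell (MADS16) and 0 rose. The summed signal was 156.3 to 173.8 in OX and 248 to 275 in WT. Most of this sum came from MADS16 (mean 57.7 in OX, 109.9 in WT) and MADS4 (mean 42.9 in OX, 59.6 in WT). DL, a carpel gene, was at -0.30 ± 0.28 (limma adjusted p 0.493). Of 7 meristem markers 2 were tested: FON1, a receptor kinase gene of floral meristems, fell by 1.06 ± 0.30 (limma adjusted p 0.0483) and lost its call in all fits that left out 1 array save that without OX replicate 2 (0.104 to 0.138, limma). The meristem gene OSH1 was below the filter, at 1.5 to 9.3 in OX and 1.6 to 19.3 in WT. Summed meristem signals, which came mostly from FON1, were 92.2 to 174.4 in OX and 181.1 to 235.3 in WT. The part of these markers in the MADS26 and MADS57 differences was not tested. Of 5 tested leaf markers 0 passed, with a median of -0.32, and PSAG was nearest (-0.39 ± 0.11, limma adjusted p 0.0524). In that list CAB2R was at -0.31 ± 0.10, rca at -0.32 ± 0.11 and RBCS at -0.30 ± 0.11 (limma adjusted p 0.0671, 0.076 and 0.108). Under quantile normalization CAB2R, rca, RBCS and RCABP69 were at -0.05, -0.01, -0.04 and -0.04, while PSAG was at -0.38. CAB2R and rca passed with array weights (0.0223 and 0.0297) and without OX replicate 2 (0.0491 and 0.0417), and PSAG with the filter of 33.6 (0.0463) and the mean over probe sets (0.0163, limma).

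**Figure D4:**
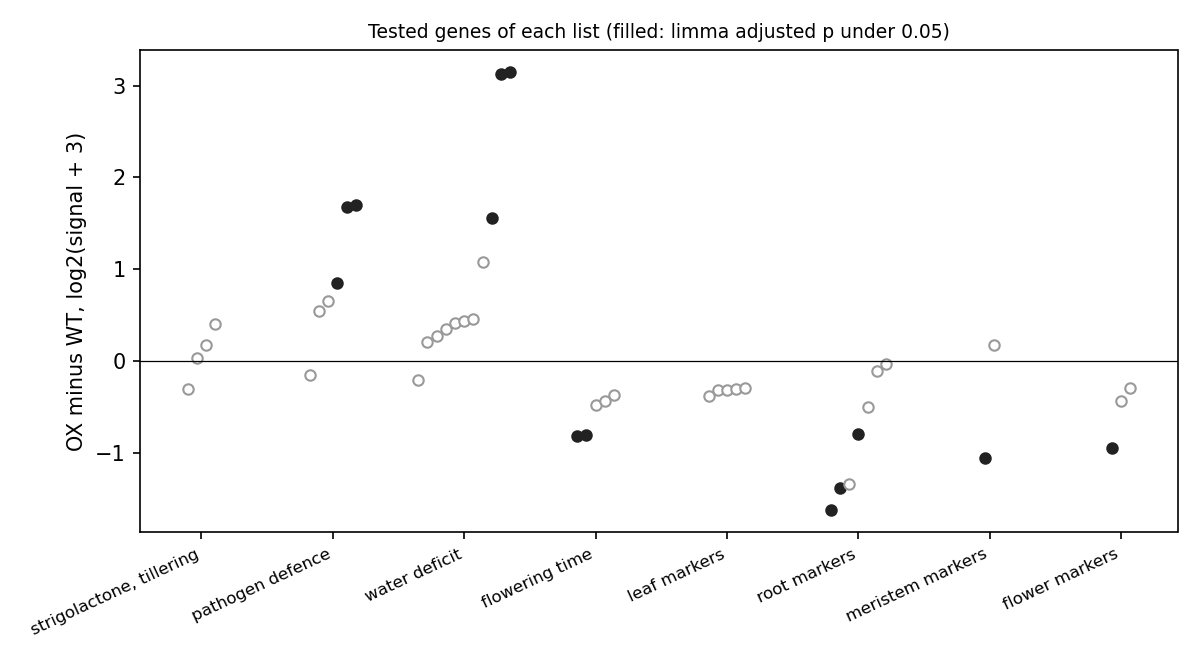
Difference between OX and WT on the log2(signal + 3) scale for the tested genes of each list, 1 point per gene. Filled points passed limma at an adjusted p under 0.05 and open points did not. Filled points lie above 0 for defence (3) and water deficit (3), and below 0 for flowering time (2), root (3), meristem (1) and flower (1) genes.

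By Pearson correlation of log2(signal + 3) over the 6 arrays, among 2069 other tested genes with an informative name, the closest to MADS26 were HSF12 (0.995), bip103 (0.988), YSL15 (0.985), NAS2 (0.984) and CRYD (0.980). HSF12 is a heat shock factor, NAS2 a nicotianamine synthase and CRYD a cryptochrome of the DASH type. This correlation does not reflect the size of a change. The differences were -0.23 for HSF12, -0.37 for bip103 and -0.60 for CRYD, against -1.65 for NAS2 and -1.63 for YSL15. HSF12 did not pass (limma adjusted p 0.147). NAS2 read 594.1, 497.6 and 1275 on the OX arrays, against 2324, 2278 and 2208 on the WT arrays. YSL15 read 17, 18.8 and 40.4 on the OX arrays, against 95, 73.2 and 71.4 on the WT arrays. In both, as in MADS26, OX array 3 was the highest OX array. Both genes were picked for their likeness to MADS26 over these same arrays, so this shared order is no separate observation. As background, 87 of these genes (4.2%) had a correlation with MADS26 over 0.9. The 6 arrays fall into 2 genotypes, so all these values share the difference between them.

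For MADS57 the closest genes were CML18 (0.991), EXP10 (0.990), EF-Ts (0.987), NSF (0.984) and RPL5 (0.982). They encode a calmodulin-like protein, an expansin, a translation elongation factor, a membrane fusion protein and a ribosomal protein. EXP10 read 461.9, 401 and 471.3 on the OX arrays, against 264.2, 192.1 and 194.3 on the WT arrays. As background, 129 genes (6.23%) had a correlation with MADS57 over 0.9. These values share the difference between the genotypes that chose MADS57, and the order of its WT arrays rests on signals of 7.5, 1.3 and 0.5, so the ranking is a description.

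Of the 5 protein-coding genes on each side of MADS26, 6 of 10 were tested, of which 2 rose and 0 fell, beside 11.1% higher and 8% lower over all tested genes. The gene directly before it, LOC4344492, read 1840, 1734 and 1737 on the OX arrays, against 1220, 1402 and 1176 on the WT arrays (0.49 ± 0.10, limma adjusted p 0.0162). LOC4344498 rose by 0.64 ± 0.16 (limma adjusted p 0.0344). The call of LOC4344492 ended without OX replicate 3, WT replicate 1 or WT replicate 3 (0.0561 to 0.0631), and that of LOC4344498 in all fits that left out 1 array save that without OX replicate 2 (0.062 to 0.108, limma).

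Around MADS57, 6 of 10 neighbours were tested, of which 1 rose and 1 fell, beside the same shares. The gene that fell, LOC4330624, is the second protein-coding gene after MADS57 in the order of the table. It read 11, 2.2 and 13.7 on the OX arrays, against 99.9, 64.7 and 51.4 on the WT arrays, without overlap. The difference was -2.76 ± 0.47 (limma adjusted p 0.00824), opposite in direction to that of MADS57, and it passed in all 15 alternatives. LOC4330624 was tested through the WT arrays, since its OX mean of 8.97 was below the filter, and its difference was -2.01 with 12 added to the signal and -3.32 with nothing added. LOC4330616 rose by 0.58 ± 0.13 (limma adjusted p 0.0234) and lost its call without OX replicates 1 or 3 or WT replicates 1 or 2 (0.0506 to 0.0882, limma). The genes on either side directly next to MADS57 had no probe set of their own. The neighbours were chosen by position alone, after the files had been seen, and these 4 were named for their values.

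**Figure D5:**
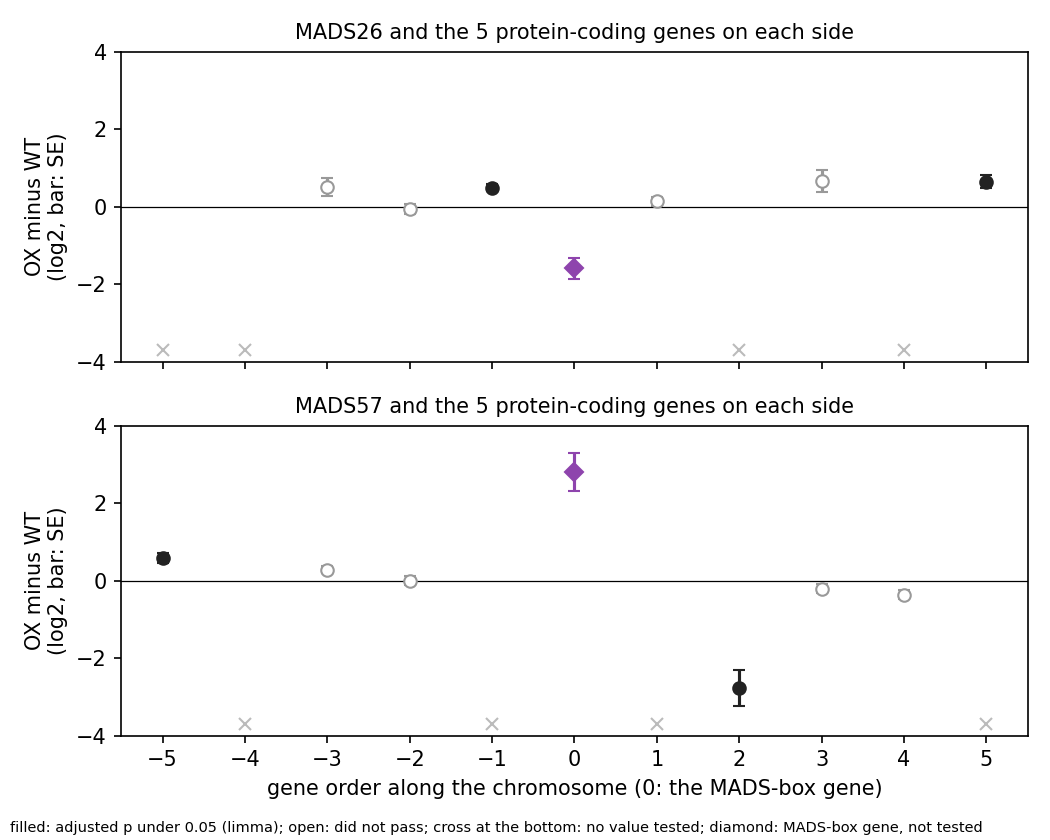
Difference between OX and WT on the log2(signal + 3) scale, with standard errors, for MADS26, MADS57 (diamonds) and the 5 protein-coding genes on each side in the order of the gene table. Filled points passed limma at an adjusted p under 0.05, open points did not, and crosses at the bottom mark genes without a tested value. The filled point at position 2 beside MADS57 is LOC4330624 (-2.76).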

How the data were processed

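Per the labels, biotinylated cRNA made from 5 µg of total RNA was hybridized, 1 array per sample. The authors summarised each probe set with MAS5 (named in the submitters' processing notes, version not given in the sources used here), and the deposited table holds the resulting intensity on a linear scale. The mean of every array after trimming 2% at each end was 100, so the authors' scaling was kept. Of 57381 probe sets, 187 controls were not fitted. Here log2(signal + 3) was fitted with limma 3.58.1 in R 4.3.3 (genotype alone, variance trend, two-sided, Benjamini-Hochberg), after a check on simulated data. A probe set was tested where its 6-array mean reached 16.8 (the median of non-control values), which kept 28456. A gene was represented by its brightest tested probe set. "Rose" and "fell" are used for an adjusted p under 0.05. Log2 differences are OX minus WT with their standard error after ±. Precision is limited by there being 3 arrays a group. The p-values set the difference between groups against the spread between arrays within them, moderated over all tested probe sets. Since the number of transgenic lines is not given, whether that spread covers differences between lines is unknown.

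The annotation paired 22436 probe sets with 1 gene and 95 with several, which were not used for names. MADS26, MADS57 and all lists were chosen with earlier results of these data known. List members were matched by symbol or synonym, and names of several genes were left out. MADS2 and NPR1 were each assigned by a further name. Genes named are MADS26 and MADS57, and those of the other MADS-box genes that passed. Also named are the members of smallest p in each list (4 at most) and the 5 genes most alike to each of the pair. Further list members, other MADS-box genes and neighbours on the chromosome were added for description. Alternatives were 12 or nothing added to the signal (0 raised to 0.1, the lowest value above it), no filter or one of 33.6, quantile normalization, no variance trend, array weights, the replicate number as a block, averaging the tested probe sets of a gene, and leaving out each array. No pair of arrays held identical values.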

Additional observations from a re-analysis of the deposited data

How the results depend on the processing

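Over all probe sets 2461 were higher and 2117 lower in OX. With array weights these counts were 3708 and 4237, and with no filter 1362 were lower. Leaving out 1 array gave 1256 to 2593 higher and 843 to 2904 lower. For MADS57 the difference was 1.66 with 12 added to the signal and 4.36 with nothing added, and it had no value with the filter of 33.6. Without OX replicate 1, 2 or 3 its mean fell below the filter and the difference was taken from the log2 values directly. The direction of MADS26 and MADS57 held in every alternative that gave a value. The count of other MADS-box genes that fell was 0 with no filter, 0 with no variance trend, 2 with array weights (MADS16 and MADS55) and 0 to 1 when 1 array was left out. Without WT replicate 2 the gene called was MADS55, not MADS16. None rose in any alternative. Over the strigolactone, defence, water-deficit and flowering-time lists together, 6 genes rose and 2 fell. Risers were 3 with no filter, 3 with no variance trend and 2 to 5 when 1 array was left out. Fallers were 1 with no filter, 1 with quantile normalization, 1 with no variance trend, 4 with array weights, 1 with the mean over probe sets and 0 to 4 when 1 array was left out. Of the named genes that passed, 8 lost the call with no filter (PBZ1, LEA3, SALT, DTH8, IRT1, FON1, MADS16, LOC4344498; adjusted p 0.0556 to 0.0917 from limma). With no variance trend 9 did (the same without DTH8, and PRR37 and LOC4344492; 0.0534 to 0.0927, limma). PBZ1 and SALT did with array weights, LEA3, IRT1 and FON1 with nothing added, DTH8 and IRT1 with quantile normalization, and PRR37 with the mean over probe sets. The replicate numbers did not pair the arrays: deviations of same-numbered arrays from their group means correlated at 0.10, -0.01 and -0.06. With the replicate block, 1869 probe sets were higher and 1473 lower, 1 other MADS-box gene fell, 5 list genes rose and 2 fell, PBZ1, SALT, IRT1, FON1 and LOC4344498 lost their calls, NPR1 (0.0409), IRT2 (0.046) and rca (0.0484, limma adjusted p) gained one, and MADS26 and MADS57 stayed at -1.59 and 2.81. Detection calls were not used here, so dim probe sets such as MADS57 in WT could not be marked as above or below background.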
